A study of Rattus norvegicus with 9 samples.

Results

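The genes described here are 43 genes of the amino acid response that the transcription factor ATF4 governs, together with cytosolic tRNA synthetases, in rat synovial fibroblasts, cells that build and line the joint capsule. They were chosen by gene symbol, with earlier results of these data known, and all 43 were found among the 17298 genes of the deposited table. The 41 with a mean of at least 1 FPKM over the 9 libraries were tested among 11372 genes kept by the same minimum. FPKM are fragments scaled to transcript length and to the mapped fragments of a library. RNA had been sequenced in 3 groups of 3 libraries, all of genotype WT. The first, called co-culture here, was given IL-1β, an inflammatory cytokine, and shared a transwell with dermal fibroblasts held in the upper chamber. The second was given IL-1β in normal culture, and the third, the control, was in normal culture with no IL-1β. The labels give no strain, age, dose or time. They do not state if each library was a separate animal or dish, and p-values therefore cover only the scatter among these libraries, possibly technical scatter. Co-culture with no IL-1β was not analysed here, and an empty insert in the other groups is not mentioned.

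Cells that run short of an amino acid, or whose endoplasmic reticulum is overloaded, phosphorylate the initiation factor eIF2 through the kinases GCN2, PERK, HRI or PKR. Most translation then slows, while Atf4 mRNA is translated better through its upstream open reading frames, so that much of the control of ATF4 lies beyond the amount of its mRNA. ATF4 pairs with C/EBP proteins at C/EBP-ATF response elements and switches on transporters, enzymes of serine, glycine, proline and asparagine synthesis, tRNA synthetases and its own feedback inhibitors. In lung fibroblasts this programme is known for supplying the glycine and proline that collagen needs.

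With IL-1β the genes fell nearly as a whole, and in co-culture most stood between IL-1β alone and control. Against control, 37 of the 41 tested genes were lower with IL-1β and 2 were higher (limma, adjusted p under 0.05), where 31.2% of all genes tested were lower and 20.5% higher. Co-culture against IL-1β alone had 31 higher and 3 lower, where 33.3% of all genes were higher and 16.7% lower. Co-culture against control had 35 lower and 1 higher, where 7.91% of all genes were lower and 12.4% higher. In either direction 51.7%, 50.0% and 20.3% of all genes passed in these 3 comparisons. All 3 IL-1β libraries lay below all 3 control libraries for 37 of the 41 genes and above them for 2, where the shares over all genes were 35.0% and 23.3%. The co-culture libraries lay above those with IL-1β alone for 33 genes and below for 3, where the shares were 37.3% and 19.5%. They lay below control for 37 genes and above for 1, where the shares were 15.6% and 22.1%. The median log2 fold changes of the 41 genes were -0.50, 0.24 and -0.26 in these 3 comparisons, beside -0.04, 0.06 and 0.02 over all genes. The 3 comparisons share libraries and are therefore set side by side, not counted as separate support. As the list was chosen with earlier results of these data known, its counts beside all genes are a description. After median-of-ratios scaling the members lower with IL-1β were again 37, beside 24.6% of all genes, and those higher in co-culture than with IL-1β alone were 27, beside 23.8%. That scaling moved the part of all calls that were higher to 51.4%, against 39.7% without it, with IL-1β, and to 50.4%, against 66.6%, in co-culture against IL-1β alone. In co-culture against control that part was 61%, and 46.4% after quantile normalization. In bulk RNA, fewer cells of a type and less RNA per cell cannot be told apart.

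**Figure D1:**
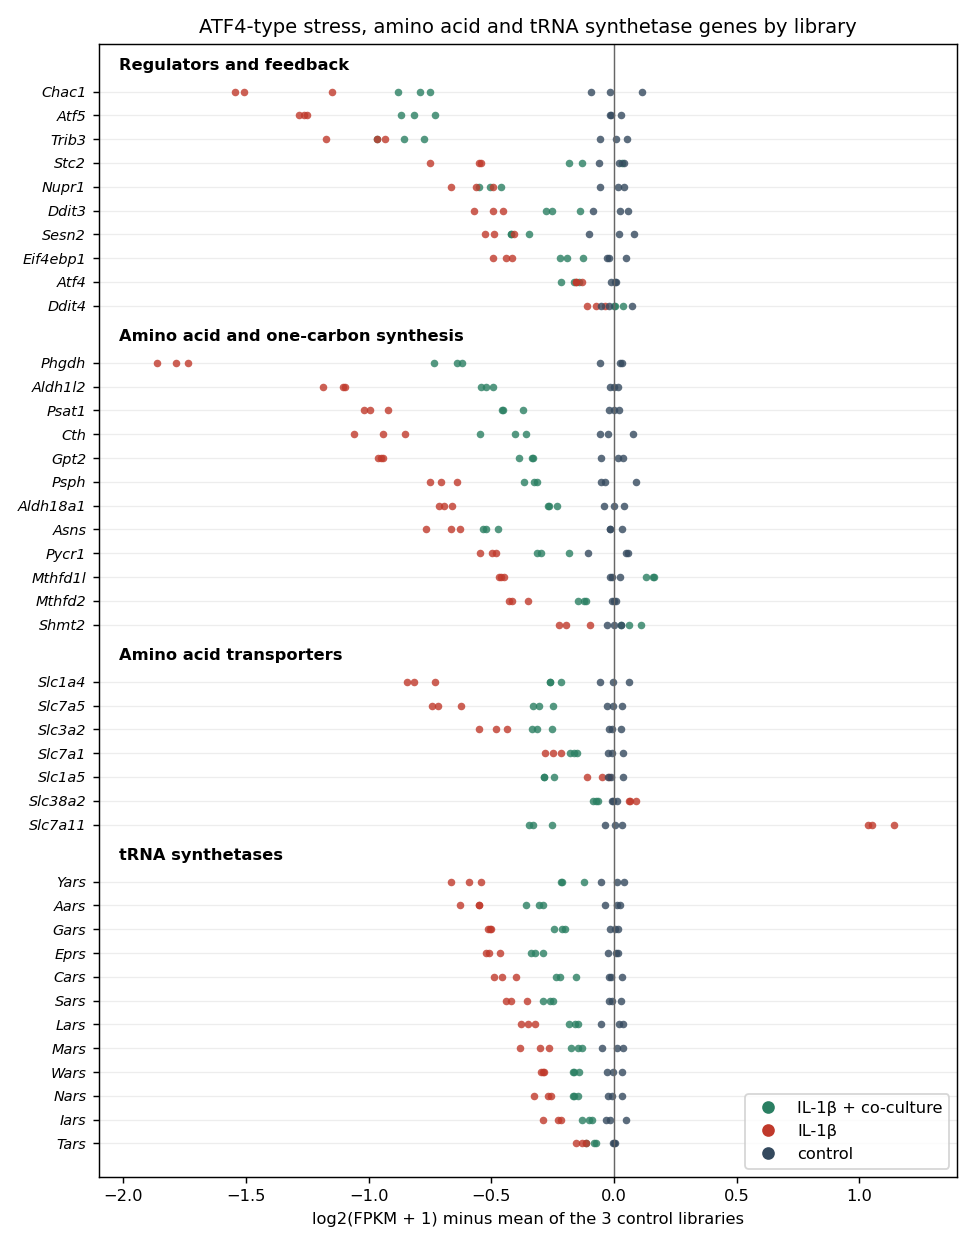
Each dot is 1 library of 1 gene, as log2(FPKM + 1) minus the mean of the 3 control libraries, for the 41 tested genes grouped by role. In 37 genes all 3 IL-1β libraries lie below all 3 control libraries, most co-culture libraries lie between them, and Slc7a11 lies far to the right with IL-1β.

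The libraries behaved alike within groups. The median over the 41 genes of the log2 difference to the control mean was -0.26, -0.24 and -0.27 in the co-culture libraries, -0.52, -0.48 and -0.49 with IL-1β alone, and -0.004, 0.02 and -0.01 in control. FPKM sums per library were 704391 to 732278 in co-culture, 718498 to 741810 with IL-1β alone and 679774 to 696329 in control. Every control sum thus lay below every other sum, and the sequencing depth is unknown. All 7 fibroblast markers examined were above 1 FPKM. Their summed level was 9286 to 9520 FPKM in co-culture, 5603 to 5814 FPKM with IL-1β alone and 11291 to 11878 FPKM in control. Most of that sum was Vim and collagen mRNA, and not all markers moved with it: Pdpn averaged 209 FPKM in co-culture, 348 FPKM with IL-1β alone and 186 FPKM in control, and Pdgfra 136 FPKM in co-culture, 164 FPKM with IL-1β alone and 147.8 FPKM in control. For the 5 markers of the lining fibroblast, 4 of them above 1 FPKM, the sums were 750 to 767 FPKM in co-culture, 815 to 843 FPKM with IL-1β alone and 701 to 717 FPKM in control. In the lining sum Prg4 averaged 139.9 FPKM in co-culture, 297 FPKM with IL-1β alone and 96.1 FPKM in control, while Htra1 averaged 581 FPKM in co-culture, 501 FPKM with IL-1β alone and 577 FPKM in control, and Has1 and Has2 were also at their lowest mean with IL-1β alone. Of 5 chondrocyte markers 4 were above 1 FPKM, with sums of 77 to 80.3 FPKM in co-culture, 22.8 to 25.8 FPKM with IL-1β alone and 190.2 to 204 FPKM in control, and the fifth, Matn1, was listed at 0 in 8 of the 9 libraries. Of 6 macrophage and leukocyte markers 3 were above 1 FPKM, with sums of 25.9 to 27.8 FPKM in co-culture, 35.1 to 39 FPKM with IL-1β alone and 26 to 28.1 FPKM in control. These 3 did not move alike. Cd14 averaged 22.7 FPKM with IL-1β alone and 13.5 FPKM in control, and Cd68 4.77 FPKM with IL-1β alone and 2.3 FPKM in control. Lyz2 averaged 7.99 FPKM with IL-1β alone and 10.65 FPKM in control. The pan-leukocyte gene Ptprc was at or under 0.13 FPKM in every library. Of 4 pericyte and smooth muscle markers found, 3 were above 1 FPKM, and the sums were 19.4 to 20.4 FPKM in co-culture, 7.74 to 9.59 FPKM with IL-1β alone and 20.7 to 21.6 FPKM in control. The 5 endothelial markers summed to at most 1.15 FPKM and the 2 epithelial markers found to at most 0.15 FPKM in any library. The part of these marker shifts in the results was not tested.

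To show the sequence that ATF4 is known to recognise, the promoters of the members were searched for TGATGNAA, the core of the C/EBP-ATF response element, on both strands (TTNCATCA on the reverse). The windows, from RefSeq, assembly GRCr8, run from 250 bases before to 50 bases after each annotated gene start, and 37 of the 43 members had one. A match was found in 13 of the 37 (35.1%), against 2.2% of 9087 tested genes with a window and 3.98% of all 33469 windows. By role, matches were in 7 of 11 synthetases, 3 of 9 regulators, 2 of 6 transporters and 1 of 11 synthesis genes. No match was found in the windows of 9 other cytosolic synthetase and scaffold genes or of 15 mitochondrial synthetases. Further genes reported as ATF4 targets had a match in 6 of 22 (27.3%). Matches were also in 2 of 15 genes of eIF2, its kinases, exchange factor and phosphatase (13.3%). Of bZIP partners and relatives 1 of 8 had one (12.5%), and of other amino acid and folate genes 1 of 16 (6.25%). These lists share some genes. The motif was chosen for its known link to ATF4, a match is only a description of the letters, and no test was made of it. The stretches of all members with a match before the gene start follow, 5′ to 3′ along the gene, with the matched letters in capitals and coordinates of GRCr8, an assembly not named for the deposited table.
Aars, chr19:55908344-55908403 (+ strand): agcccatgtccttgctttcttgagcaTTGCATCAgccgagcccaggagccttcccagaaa
Iars, chr17:15193653-15193702 (- strand): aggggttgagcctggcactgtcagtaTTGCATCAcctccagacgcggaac
Mars, chr7:65023754-65023796 (- strand): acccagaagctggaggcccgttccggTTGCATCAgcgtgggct
Nars, chr18:60275783-60275822 (- strand): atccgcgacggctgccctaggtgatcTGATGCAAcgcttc
Tars, chr2:62114803-62114855 (- strand): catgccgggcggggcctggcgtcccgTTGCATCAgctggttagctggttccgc
Trib3, chr3:161275534-161275580 (- strand): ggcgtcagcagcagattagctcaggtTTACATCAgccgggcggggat
Chac1, chr3:126795938-126795997 (+ strand): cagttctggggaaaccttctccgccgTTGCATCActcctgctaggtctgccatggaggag
Nupr1, chr1:190645923-190645982 (- strand): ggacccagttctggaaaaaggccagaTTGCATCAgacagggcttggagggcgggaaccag
Pycr1, chr10:106420910-106420969 (- strand): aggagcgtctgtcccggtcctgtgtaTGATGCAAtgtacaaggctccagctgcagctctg
Slc1a4, chr14:98761764-98761812 (- strand): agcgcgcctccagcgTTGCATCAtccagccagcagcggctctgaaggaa
Slc7a1, chr12:11664432-11664487 (+ strand): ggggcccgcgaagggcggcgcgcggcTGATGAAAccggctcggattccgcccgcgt
In Iars, Mars, Tars and Trib3 the letters TTNCATCA begin 24, 17, 27 and 21 bases before the start, and in Nars the forward letters begin 14 bases before it. Cars and Yars had their match after the start, at bases 18 and 39, and Aars had a second one there, so these are not printed.

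Atf4 itself, the gene of the central factor, moved little. It was at 275, 279 and 265 FPKM in co-culture, 282, 277 and 276 FPKM with IL-1β alone and 309.5, 306 and 309 FPKM in control. The IL-1β and co-culture libraries overlapped, and both lay below every control library. The log2 fold change was -0.15 ± 0.03, adjusted p = 0.00091 (limma) with IL-1β, -0.17 ± 0.03, adjusted p = 0.001 in co-culture against control and -0.03 ± 0.03, adjusted p = 0.45 in co-culture against IL-1β alone. This last value was -0.09 after median-of-ratios scaling (adjusted p = 0.015) and 0.01 after quantile normalization.

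Of the 10 regulators and feedback genes, 9 were lower with IL-1β, 5 were higher in co-culture than with IL-1β alone and 8 were lower in co-culture than in control. The shares over all genes were 31.2%, 33.3% and 7.91%. Atf5, a bZIP factor related to ATF4 and also translated under stress, was at 84.9, 79.97 and 76.9 FPKM in co-culture, 58.7, 58.3 and 57.4 FPKM with IL-1β alone and 139.8, 144 and 140.2 FPKM in control. The groups did not overlap, and co-culture stood between the other groups. Its log2 fold change was -1.27 ± 0.04, adjusted p = 7.7e-11 with IL-1β and 0.46 ± 0.04, adjusted p = 1.1e-06 in co-culture against IL-1β alone. Chac1, an enzyme that degrades glutathione, was at 5.43, 5.04 and 5.62 FPKM in co-culture, 4.01, 2.81 and 2.91 FPKM with IL-1β alone and 9.41, 9.99 and 11.0 FPKM in control, again with no overlap between groups. Its log2 fold change of -1.40 ± 0.10, adjusted p = 2.7e-07 with IL-1β was the largest of the regulators, and its level was higher in co-culture than with IL-1β alone by 0.59 ± 0.10, adjusted p = 0.0004.

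Trib3, a pseudokinase that inhibits ATF4 in a feedback loop, was at 9.86, 9.06 and 10.5 FPKM in co-culture, 9.06, 7.69 and 9.29 FPKM with IL-1β alone and 19.3, 18.7 and 17.9 FPKM in control. All IL-1β and co-culture libraries lay below the control libraries, with log2 fold changes of -1.02 ± 0.07, adjusted p = 2e-07 with IL-1β and -0.86 ± 0.07, adjusted p = 5.6e-06 in co-culture, while the difference between co-culture and IL-1β alone did not pass (0.16 ± 0.07, adjusted p = 0.08). Without co-culture replicate 2 or IL-1β replicate 3 that difference passed, at 0.21 in both cases (adjusted p = 0.041 and 0.046). Ddit3, which encodes the stress factor CHOP, was at 36.4, 33.6 and 33.0 FPKM in co-culture, 26.7, 29.1 and 28.2 FPKM with IL-1β alone and 40.9, 41.8 and 37.8 FPKM in control. It fell by 0.51 ± 0.05, adjusted p = 5.8e-06 with IL-1β, and the co-culture libraries lay between the other groups (0.28 ± 0.05, adjusted p = 0.00068 against IL-1β alone).

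Stc2, the gene of the secreted glycoprotein stanniocalcin 2, was at 28.3, 25.2 and 24.2 FPKM in co-culture, 18.7, 16.0 and 18.6 FPKM with IL-1β alone and 28.4, 28.0 and 26.4 FPKM in control. Here the co-culture libraries overlapped with control, and the difference to control did not pass (-0.09 ± 0.07, adjusted p = 0.38), after a log2 fold change of -0.61 ± 0.07, adjusted p = 1.5e-05 with IL-1β. Nupr1, a small stress-induced chromatin protein gene, and Sesn2, a leucine sensor gene that restrains mTORC1, resembled Trib3. Nupr1 averaged 131 ± 4.08 FPKM in co-culture, 125 ± 7.42 with IL-1β alone and 186 ± 6.66 in control (SD, n = 3), and Sesn2 averaged 7.57 ± 0.26 FPKM in co-culture, 7.11 ± 0.349 with IL-1β alone and 10.3 ± 0.728 in control. Neither passed in co-culture against IL-1β alone (log2 fold changes 0.07 ± 0.04, adjusted p = 0.24 and 0.08 ± 0.06, adjusted p = 0.28), and both were lower than control in each (adjusted p = 6.7e-07 and 3e-05 with IL-1β). Eif4ebp1, whose product represses cap-dependent translation, averaged 190.5 ± 6.47 FPKM in co-culture, 158 ± 4.17 with IL-1β alone and 216 ± 6.38 in control and fell by 0.45 ± 0.03, adjusted p = 6.2e-07 with IL-1β. Ddit4, an mTORC1 inhibitor gene also induced by low oxygen and glucocorticoids, passed in none of the 3 comparisons and averaged 43.1 ± 0.603 FPKM in co-culture, 40.6 ± 1.09 with IL-1β alone and 42.8 ± 2.03 in control.

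**Figure D2:**
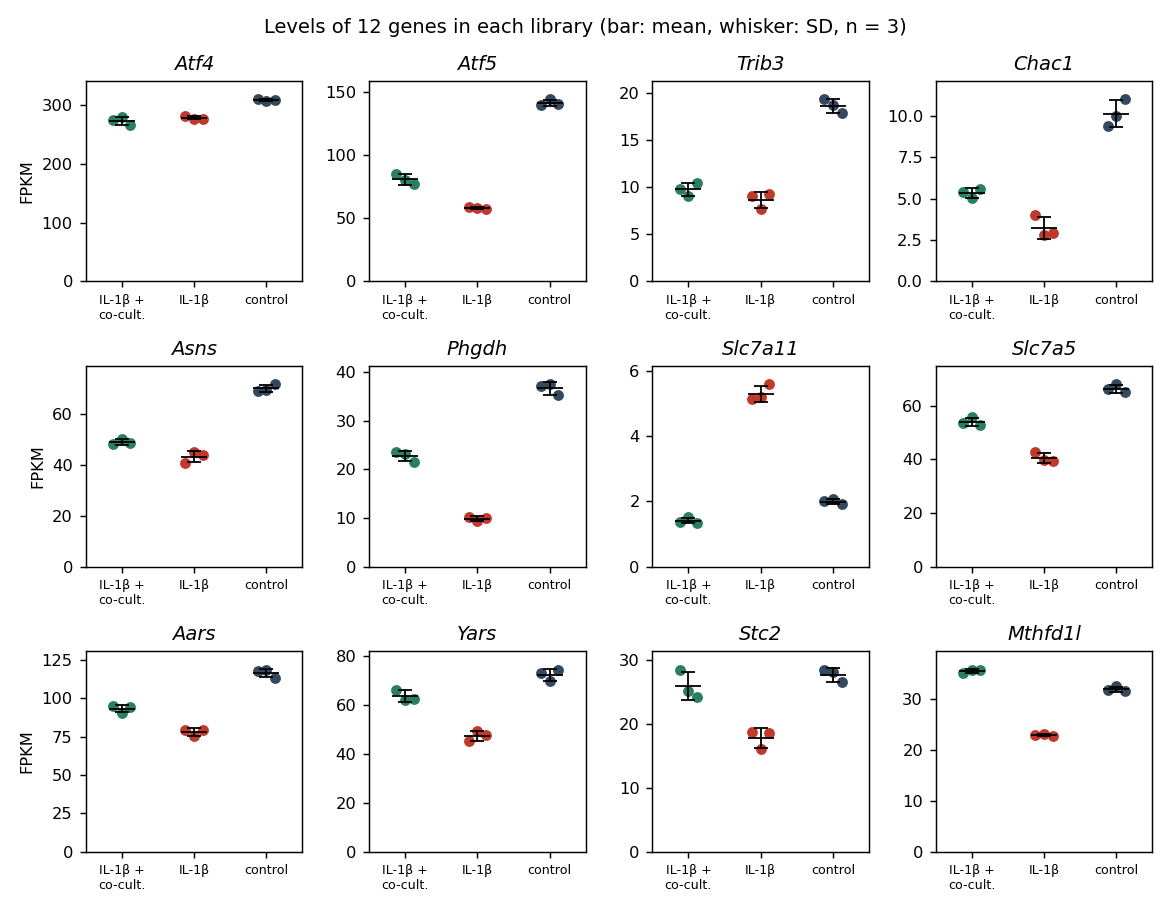
FPKM in each library for 12 of the genes, from left to right in co-culture, with IL-1β alone and in control, with axes from 0, the mean as a bar and the SD as a whisker (n = 3). Atf4 differs little between groups, Phgdh and Atf5 are at their lowest with IL-1β, Slc7a11 is at its highest there, and Mthfd1l is highest in co-culture.

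Of the roles, amino acid and one-carbon synthesis had the lowest median log2 fold change with IL-1β. All 12 tested genes were lower with IL-1β, with a median log2 fold change of -0.69, and all 12 were higher in co-culture than with IL-1β alone, with a median of 0.47. Against control, 10 of them were lower in co-culture and 1 was higher. Over all genes 31.2% were lower with IL-1β and 33.3% were higher in co-culture than with IL-1β alone. Against control, 7.91% of all genes were lower in co-culture and 12.4% higher. Phgdh, the first enzyme of serine synthesis from glycolysis, was at 23.5, 23.1 and 21.6 FPKM in co-culture, 10.3, 9.35 and 9.92 FPKM with IL-1β alone and 37.2, 37.5 and 35.2 FPKM in control. The groups did not overlap, and the IL-1β level was 0.269 times that of control. Its log2 fold change of -1.79 ± 0.05, adjusted p = 3.6e-11 with IL-1β was the largest fall of all 41 genes, and its rise of 1.13 ± 0.05, adjusted p = 4.3e-09 in co-culture was also the largest. Psat1, the next enzyme of the pathway, was at 76.2, 71.9 and 71.7 FPKM in co-culture, 49.0, 48.2 and 51.6 FPKM with IL-1β alone and 98.9, 97.4 and 100.2 FPKM in control, a log2 fold change of -0.98 ± 0.04, adjusted p = 7.5e-10 with IL-1β and a rise of 0.55 ± 0.04, adjusted p = 2.2e-07 in co-culture against IL-1β alone. Psph, the last enzyme, averaged 17.9 ± 0.386 FPKM in co-culture, 13.7 ± 0.569 with IL-1β alone and 22.9 ± 1.32 in control, with a log2 fold change of -0.70 ± 0.05, adjusted p = 2.1e-07 with IL-1β. The 3 enzymes of the pathway thus kept 1 order, lowest with IL-1β and highest in control, in every library.

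Asns, which makes asparagine and is a classical target of ATF4, was at 47.9, 50.01 and 48.4 FPKM in co-culture, 40.7, 44.9 and 43.7 FPKM with IL-1β alone and 69.0, 69.1 and 71.5 FPKM in control. All groups were apart, but co-culture lay close to IL-1β alone. It fell by 0.69 ± 0.04, adjusted p = 3.9e-08 with IL-1β and was 0.18 ± 0.04, adjusted p = 0.003 higher in co-culture. Aldh1l2, a mitochondrial enzyme that turns formyl-tetrahydrofolate into tetrahydrofolate, was at 31.2, 31.7 and 32.4 FPKM in co-culture, 19.6, 20.9 and 20.8 FPKM with IL-1β alone and 46.4, 45.9 and 45.4 FPKM in control, with a log2 fold change of -1.13 ± 0.04, adjusted p = 1.7e-10 with IL-1β. Cth, the last enzyme of cysteine synthesis from methionine, was low, at 4.42, 3.75 and 4.25 FPKM in co-culture, 2.33, 2.84 and 2.61 FPKM with IL-1β alone and 5.83, 6.33 and 5.68 FPKM in control. It fell by 0.95 ± 0.07, adjusted p = 5.7e-07 with IL-1β and rose by 0.52 ± 0.07, adjusted p = 0.00013 in co-culture against IL-1β alone. Its partner Cbs was listed at 0, 0.05 or 0.08 FPKM in each library and was not tested. Gpt2, a mitochondrial alanine transaminase, averaged 5.9 ± 0.15 FPKM in co-culture, 3.55 ± 0.03 with IL-1β alone and 7.8 ± 0.284 in control, with a log2 fold change of -0.95 ± 0.05, adjusted p = 1.4e-08 with IL-1β.

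The proline enzymes Aldh18a1 and Pycr1 were also lower, Aldh18a1 at 25.1 ± 0.355 FPKM in co-culture, 18.3 ± 0.355 with IL-1β alone and 30.2 ± 0.906 in control and Pycr1 at 14.5 ± 0.781 FPKM in co-culture, 12.1 ± 0.295 with IL-1β alone and 17.7 ± 1.18 in control. Their log2 fold changes with IL-1β were -0.69 ± 0.04, adjusted p = 1.8e-08 and -0.51 ± 0.05, adjusted p = 1.1e-05. A pair of mitochondrial folate genes, Mthfd1l and Shmt2, was not called lower than control in co-culture. Mthfd1l, which releases formate, was at 35.0, 35.8 and 35.7 FPKM in co-culture, 22.9, 23.1 and 22.8 FPKM with IL-1β alone and 31.7, 32.5 and 31.5 FPKM in control. All co-culture libraries were above all control libraries, by 0.15 ± 0.03, adjusted p = 0.0053, and it was the 1 member higher in co-culture than in control. Shmt2, which splits serine into glycine and a one-carbon unit, averaged 155 ± 4.59 FPKM in co-culture, 131 ± 6.15 with IL-1β alone and 148.1 ± 2.89 in control. It fell by 0.17 ± 0.04, adjusted p = 0.0023 with IL-1β and did not differ from control past the threshold in co-culture (0.07 ± 0.04, adjusted p = 0.25). Mthfd2, between them in the pathway, averaged 51.1 ± 0.579 FPKM in co-culture, 42.3 ± 1.28 with IL-1β alone and 56.0 ± 0.32 in control, a log2 fold change of -0.40 ± 0.03, adjusted p = 6.6e-07 with IL-1β. Its lower level in co-culture than in control (-0.13 ± 0.03, adjusted p = 0.014) missed the threshold without co-culture replicate 2 (adjusted p = 0.052) or control replicate 1 (adjusted p = 0.051).

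The amino acid transporters did not move as 1 group. Of 7 tested, 4 were called lower and 2 higher with IL-1β, beside 31.2% and 20.5% of all genes. In co-culture 6 were called lower than control, beside 7.91% of all genes. The co-culture libraries of all 7 lay below the control libraries, where the share over all genes was 15.6%. The 2 that rose were Slc7a11 and, by a small step, Slc38a2. Slc7a11, the cystine importer xCT, was at 1.38, 1.51 and 1.35 FPKM in co-culture, 5.13, 5.19 and 5.59 FPKM with IL-1β alone and 2, 2.06 and 1.91 FPKM in control. The IL-1β mean was 2.67 times the control mean and the co-culture libraries lay below control, so no groups overlapped. The log2 fold change was 1.08 ± 0.06, adjusted p = 4.1e-08 with IL-1β, -1.38 ± 0.06, adjusted p = 7.6e-09 in co-culture against IL-1β alone and -0.31 ± 0.06, adjusted p = 0.0043 in co-culture against control. Of the 41 tested members it had the lowest mean over the 9 libraries, 2.9 FPKM, and the scale with 1 added understates such changes. Below the minimum of 1 FPKM, the arginine and lysine transporter Slc7a3 was at 0.28, 0.22 and 0.15 FPKM in co-culture, 0.19, 0.13 and 0.1 FPKM with IL-1β alone and 0.47, 0.46 and 0.47 FPKM in control and was not tested.

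Slc7a5, the large neutral amino acid transporter LAT1, was at 53.4, 55.7 and 52.6 FPKM in co-culture, 42.7, 39.9 and 39.2 FPKM with IL-1β alone and 66.1, 67.9 and 64.9 FPKM in control. It fell by 0.69 ± 0.04, adjusted p = 3.4e-08 with IL-1β and rose by 0.40 ± 0.04, adjusted p = 6.5e-06 in co-culture against IL-1β alone, with no overlap between groups. Slc3a2, the heavy chain that both LAT1 and xCT need at the cell surface, moved with Slc7a5 and not with Slc7a11, at 113, 108 and 107 FPKM in co-culture, 99.7, 96.5 and 92.0 FPKM with IL-1β alone and 133, 134 and 138 FPKM in control. Its log2 fold change with IL-1β was -0.49 ± 0.04, adjusted p = 3.5e-07. Slc1a4, a carrier of alanine, serine and cysteine, was at 55.6, 57.4 and 55.6 FPKM in co-culture, 39.9, 36.8 and 37.5 FPKM with IL-1β alone and 66.6, 69.7 and 64.1 FPKM in control, with a log2 fold change of -0.80 ± 0.04, adjusted p = 1.5e-08 with IL-1β and a rise of 0.55 ± 0.04, adjusted p = 6.6e-07 in co-culture.

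The cationic amino acid transporter Slc7a1 averaged 10.3 ± 0.106 FPKM in co-culture, 9.63 ± 0.235 with IL-1β alone and 11.6 ± 0.279 in control, a log2 fold change of -0.25 ± 0.04, adjusted p = 0.00033 with IL-1β. Its lower level in co-culture than in control (-0.17 ± 0.04, adjusted p = 0.015) did not pass without control replicate 2 (adjusted p = 0.06). The glutamine carrier gene Slc1a5 averaged 31.0 ± 0.554 FPKM in co-culture, 36.1 ± 1.17 with IL-1β alone and 37.7 ± 0.857 in control. It did not pass with IL-1β (-0.06 ± 0.04, adjusted p = 0.19) but was lower in co-culture than in either other group (-0.21 ± 0.04, adjusted p = 0.00042 against IL-1β alone). Slc38a2, a sodium-coupled carrier of small neutral amino acids that starved cells induce, averaged 188 ± 1.34 FPKM in co-culture, 208 ± 2.17 with IL-1β alone and 198 ± 1.58 in control. Its rise with IL-1β was small (0.07 ± 0.02, adjusted p = 0.03), was -0.01 after quantile normalization, and missed the threshold without IL-1β replicate 2 (adjusted p = 0.09), control replicate 1 (0.09) or control replicate 2 (0.08), without trend and robust settings (0.063) and in the fit of the 2 groups alone (0.055). Its log2 fold change in co-culture against IL-1β alone was -0.14 ± 0.02, adjusted p = 0.00049, and its difference between co-culture and control (-0.07 ± 0.02, adjusted p = 0.058) passed after median-of-ratios scaling (adjusted p = 0.027), after quantile normalization (0.0018) and with no minimum (0.048).

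The 12 listed cytosolic tRNA synthetases, which load amino acids onto their tRNAs, all fell with IL-1β. All 12 were lower with IL-1β, each library below each control library, where the shares over all genes were 31.2% and 35.0%. The median log2 fold change was -0.38 and the range from -0.60 to -0.13. In co-culture 11 of 12 were higher than with IL-1β alone (median 0.17), beside 33.3% of all genes. Against control, 11 of 12 were lower in co-culture (median -0.17), beside 7.91% of all genes. Of the 11 rises against IL-1β alone, those of Iars, Nars, Sars and Wars did not pass after median-of-ratios scaling (adjusted p = 0.084 to 0.11). After quantile normalization that of Iars did not (adjusted p = 0.073).

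Yars, for tyrosine, was at 66.1, 61.9 and 62.1 FPKM in co-culture, 45.1, 49.3 and 47.5 FPKM with IL-1β alone and 72.7, 69.5 and 74.3 FPKM in control, with the largest change of the synthetases, -0.60 ± 0.04, adjusted p = 2.5e-07 with IL-1β, and the largest rise in co-culture against IL-1β alone, 0.41 ± 0.04, adjusted p = 9.1e-06. Aars, for alanine, was at 95.2, 90.7 and 94.1 FPKM in co-culture, 79.4, 75.2 and 79.3 FPKM with IL-1β alone and 118, 119 and 114 FPKM in control. It fell by 0.58 ± 0.03, adjusted p = 4.8e-08 with IL-1β and regained 0.26 ± 0.03, adjusted p = 7e-05 in co-culture. Gars, for glycine, was at 116, 112 and 115 FPKM in co-culture, 92.6, 93.3 and 93.4 FPKM with IL-1β alone and 131, 133 and 134 FPKM in control, and its log2 fold change with IL-1β was -0.51 ± 0.03, adjusted p = 1.6e-08. Eprs, the joint glutamate and proline enzyme, was at 94.5, 95.4 and 97.8 FPKM in co-culture, 83.0, 83.7 and 86.5 FPKM with IL-1β alone and 118, 120.1 and 121 FPKM in control, with a log2 fold change of -0.50 ± 0.03, adjusted p = 4.5e-08. In these 4 genes no groups overlapped.

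At the other end Tars, for threonine, averaged 78.7 ± 1.2 FPKM in co-culture, 76.3 ± 1.05 with IL-1β alone and 83.8 ± 0.181 in control, a log2 fold change of -0.13 ± 0.03, adjusted p = 0.0015 with IL-1β. It was the 1 listed synthetase that did not pass in co-culture against IL-1β alone (0.04 ± 0.03, adjusted p = 0.21, and -0.02 after median-of-ratios scaling). Its lower level in co-culture than in control (-0.09 ± 0.03, adjusted p = 0.036) missed the threshold without any 1 of the 6 co-culture or control libraries (adjusted p from 0.058 to 0.13). Iars, for isoleucine, averaged 32.5 ± 0.478 FPKM in co-culture, 29.5 ± 0.793 with IL-1β alone and 35.1 ± 1.07 in control. Among the listed synthetases only its co-culture level did not differ from control past the threshold (-0.11 ± 0.04, adjusted p = 0.056). That difference passed after median-of-ratios scaling (adjusted p = 0.03) and quantile normalization (0.012). Mars, for methionine, averaged 55.0 ± 0.838 FPKM in co-culture, 48.9 ± 2.09 with IL-1β alone and 61.2 ± 1.91 in control, and its difference between co-culture and control (-0.15 ± 0.04, adjusted p = 0.016) was lost without co-culture replicate 3, control replicate 1 or control replicate 2 (adjusted p = 0.055, 0.055 and 0.065). The remaining 5, Cars, Lars, Nars, Sars and Wars, had log2 fold changes from -0.45 to -0.28 with IL-1β. Wars, for tryptophan, which interferon-γ is known to induce, averaged 43.02 ± 0.388 FPKM in co-culture, 39.1 ± 0.131 with IL-1β alone and 48.1 ± 1.01 in control.

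Synthetases outside the list were counted in the same way. Of 11 other cytosolic synthetase and scaffold genes of the multi-synthetase complex, 5 were lower and 1 higher with IL-1β, with a median log2 fold change of -0.09, beside 31.2% and 20.5% of all genes. In co-culture against control none was lower and 2 were higher, beside 7.91% and 12.4% of all genes. The 5 lower ones included Kars, for lysine, at 106 ± 3.52 FPKM in co-culture, 84.7 ± 1.31 with IL-1β alone and 103 ± 1.08 in control (-0.28 ± 0.03, adjusted p = 1.3e-05 with IL-1β), Vars, for valine, at 53.8 ± 1.81 FPKM in co-culture, 43.8 ± 1.87 with IL-1β alone and 52.2 ± 0.79 in control, and Dars, for aspartate, at 83.1 ± 0.906 FPKM in co-culture, 69.9 ± 2.99 with IL-1β alone and 77.8 ± 1.7 in control. The 1 higher gene was the scaffold Eef1e1, at 75.4 ± 1.69 FPKM in co-culture, 78.9 ± 3.61 with IL-1β alone and 66.9 ± 1.28 in control (0.23 ± 0.04, adjusted p = 0.00023 with IL-1β). Of 17 mitochondrial synthetases, 5 were lower and none higher with IL-1β (median -0.14), a share lower that is near the 31.2% of all genes. In co-culture 8 were higher than with IL-1β alone, where 33.3% of all genes were, and none was lower than control, where 7.91% were. Tars2 was the most changed, averaging 11.6 ± 0.982 FPKM in co-culture, 8.62 ± 0.188 with IL-1β alone and 11.2 ± 0.41 in control (-0.34 ± 0.06, adjusted p = 0.00039 with IL-1β). Hars2 averaged 8.86 ± 0.357 FPKM in co-culture, 7.74 ± 0.6 with IL-1β alone and 9.63 ± 0.45 in control, and Nars2 and Cars2 had log2 fold changes of 0.24 ± 0.06, adjusted p = 0.0079 and 0.35 ± 0.10, adjusted p = 0.0094 in co-culture against IL-1β alone. The difference between the listed and the other synthetases was not tested.

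**Figure D3:**
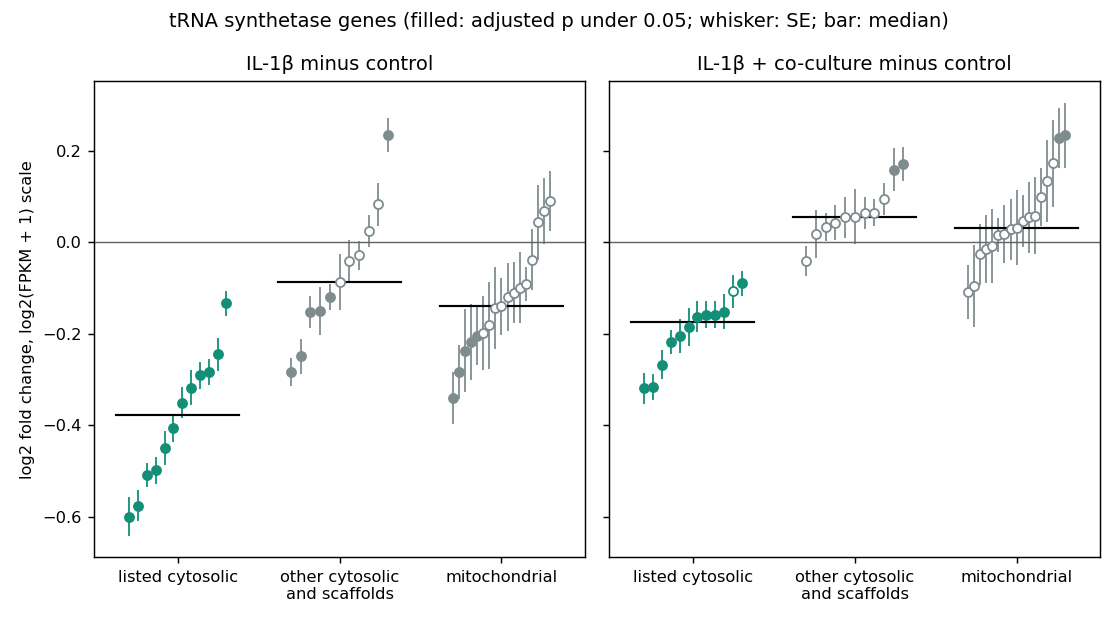
Log2 fold changes with their SE for 12 listed cytosolic synthetases, 11 other cytosolic synthetases and scaffolds, and 17 mitochondrial synthetases, with IL-1β against control on the left and co-culture against control on the right. Filled dots passed an adjusted p of 0.05 and bars are medians. The listed genes lie at medians of -0.38 and -0.17, the other cytosolic genes at -0.09 and 0.06 and the mitochondrial genes at -0.14 and 0.03.

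How much of the IL-1β change was left in co-culture was expressed as the difference of co-culture to control over that of IL-1β to control, in percent, on the log2(FPKM + 1) scale. A value of 100% stands for the IL-1β level and 0% for the control level, and since both differences use the control libraries the values are a description. Over the 39 genes that had passed with IL-1β the median was 45.9%, and by co-culture library it was 46.5%, 48% and 49.1%. Over the 37 that fell it was 46.3% (quartiles 39.9% and 63.4%), beside 19.6% over the 3544 of all genes that fell (quartiles -8.88% and 39.9%). Restricted to falls of at least 0.5 on the log2 scale, the medians were 44.8% over 20 members and 30.9% over 814 genes. Median-of-ratios scaling gave 59.1% and 29% for the members and all genes that fell, and quantile normalization 55.8% and 27.2%.

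By role, over regulators that fell the median was 63.5%, over synthesis genes 40.4%, over transporters 51.9% and over synthetases 51%. Atf4 was at 118% (95% Fieller interval 80.4% to 185%), Nupr1 at 88.3% (95% Fieller interval 72.9% to 106%) and Trib3 at 84.4% (95% Fieller interval 71.1% to 99.4%). Asns kept 74.4% (95% Fieller interval 63.4% to 86.1%), Atf5 63.5% (95% Fieller interval 58.0% to 69.0%) and Chac1 57.5% (95% Fieller interval 44.2% to 71.3%). Of the serine enzymes, Phgdh kept 37.1% (95% Fieller interval 32.0% to 42.1%) and Psat1 43.5% (95% Fieller interval 36.5% to 50.5%). Stc2 kept 15.3% (95% Fieller interval -10.4% to 36.6%), an interval that includes the control level. Mthfd1l, at -32.7% (95% Fieller interval -52.6% to -16.5%), and Slc7a11, at -28.8% (95% Fieller interval -45.0% to -15.1%), lay beyond the control level. Slc38a2 also did, at -103% (95% Fieller interval -598% to -19.0%). Its change with IL-1β was only 0.07, and a share of so small a change is imprecise. Of the 39 genes, 29 had an interval between 0% and 100%, 5 had one that reached 100%, 2 had one that included 0% and 3 had one below 0%.

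**Figure D4:**
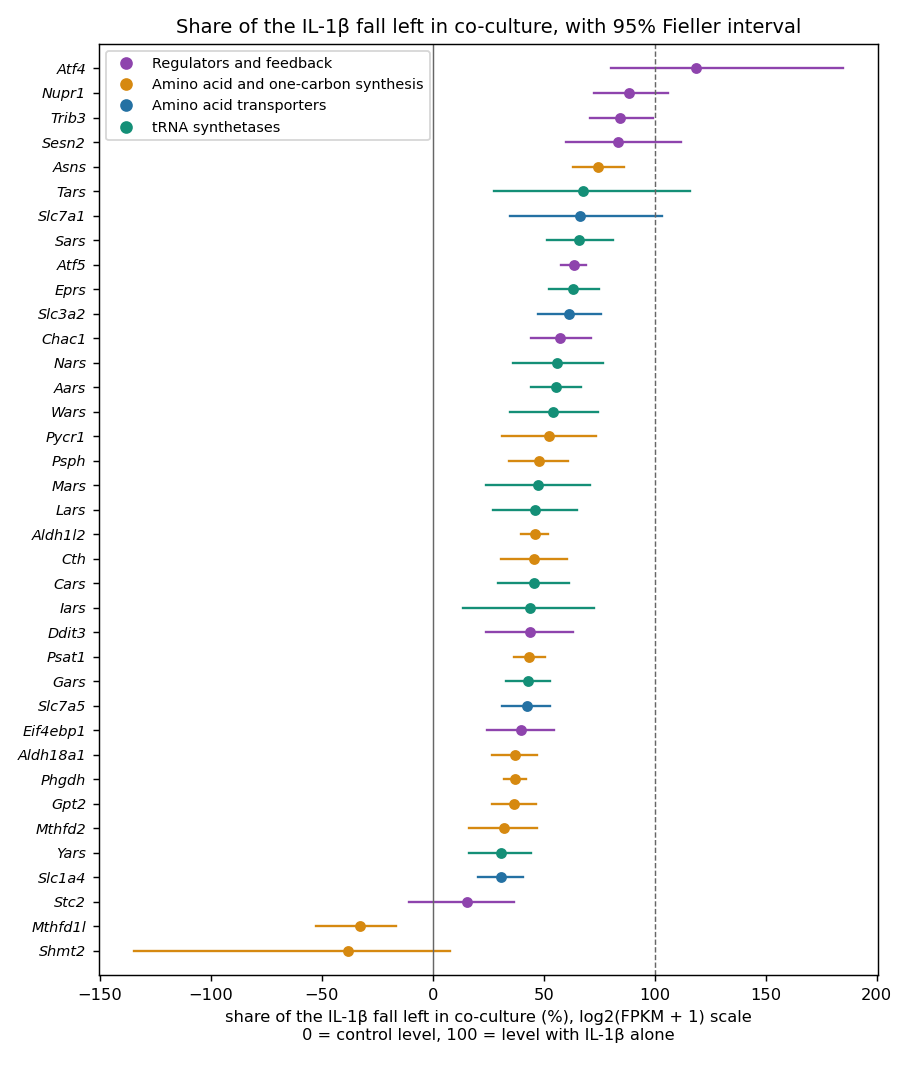
Share of the fall with IL-1β left in co-culture, with its 95% Fieller interval, for the 37 genes that fell, coloured by role, where 0 is the control level and 100 the level with IL-1β alone. Atf4, Nupr1, Trib3 and Sesn2 are at the top, and Stc2, Mthfd1l and Shmt2 at the bottom, from 118% down to -38%.

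Upstream of ATF4 stand genes of eIF2, its kinases, its exchange factor and its phosphatase. Of 15 tested, 8 were lower and 1 higher with IL-1β, with a median of -0.13, beside 31.2% and 20.5% of all genes. In co-culture 3 were lower than control, beside 7.91% of all genes. Eif2b2, a subunit gene of the exchange factor eIF2B, averaged 63.7 ± 1.97 FPKM in co-culture, 47.4 ± 1.06 with IL-1β alone and 70.8 ± 0.709 in control (-0.57 ± 0.03, adjusted p = 3.7e-08 with IL-1β), and Eif2b1 and the eIF2 subunit gene Eif2s3 had log2 fold changes of -0.22 ± 0.04 and -0.13 ± 0.03. The 1 higher gene was Ppp1r15a, whose product GADD34 brings a phosphatase to eIF2 and which is itself an ATF4 target, at 32.1, 32.1 and 29.2 FPKM in co-culture, 43.4, 43.2 and 44.7 FPKM with IL-1β alone and 28.6, 31.1 and 31.8 FPKM in control. It rose by 0.51 ± 0.05, adjusted p = 4e-06 with IL-1β, and co-culture overlapped with control.

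Among bZIP partners and relatives of ATF4, 3 of 8 tested were higher and 4 lower with IL-1β, beside 20.5% and 31.2% of all genes. Cebpb, a partner that IL-1β is known to induce, averaged 169 ± 11.4 FPKM in co-culture, 227 ± 18.4 with IL-1β alone and 138 ± 4.27 in control, a rise of 0.71 ± 0.06, adjusted p = 2.4e-06. Nfe2l2, the gene of NRF2, which like ATF4 drives Slc7a11, averaged 92.5 ± 0.874 FPKM in co-culture, 119 ± 3.78 with IL-1β alone and 89.8 ± 0.469 in control, with 0.41 ± 0.03, adjusted p = 3.1e-07 with IL-1β and -0.37 ± 0.03, adjusted p = 1.3e-06 in co-culture against IL-1β alone. Xbp1, of the unfolded protein response, rose by 0.22 ± 0.03, adjusted p = 0.00022 with IL-1β. Jdp2, a repressor of AP-1 sites, was 1 of the 4 lower genes. It averaged 23.3 ± 1.42 FPKM in co-culture, 14.2 ± 0.995 with IL-1β alone and 25.5 ± 1.97 in control (-0.81 ± 0.07, adjusted p = 9e-07 with IL-1β).

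Of 21 tested further genes reported as ATF4 targets, a list that shares Cebpb, Jdp2, Ppp1r15a and Nars2 with those above, 12 were lower and 7 higher with IL-1β (median -0.25), beside 31.2% and 20.5% of all genes. Sesn3, a sestrin gene, averaged 17.7 ± 0.805 FPKM in co-culture, 11.3 ± 0.375 with IL-1β alone and 25.3 ± 0.657 in control (-1.10 ± 0.04, adjusted p = 1.8e-09 with IL-1β). Pck2, the mitochondrial enzyme that makes phosphoenolpyruvate, averaged 32.4 ± 0.63 FPKM in co-culture, 26.7 ± 1.9 with IL-1β alone and 45.5 ± 0.671 in control (-0.75 ± 0.05, adjusted p = 7e-08), and Vldlr, a lipoprotein receptor gene, 13.1 ± 0.24 FPKM in co-culture, 10.5 ± 0.217 with IL-1β alone and 17.9 ± 0.99 in control (-0.72 ± 0.05, adjusted p = 1.1e-07). Vegfa, which hypoxia and cytokines also raise, was higher with IL-1β, at 49.1 ± 0.41 FPKM in co-culture, 66.1 ± 2.44 with IL-1β alone and 43.8 ± 0.753 in control (0.58 ± 0.03, adjusted p = 4.1e-08).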

How the data were processed

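Messenger RNA of 9 libraries was analysed, 3 per group, grouped by title. The deposited values are FPKM for 17298 genes, per the file headers. The submitters' processing notes name GRCm38, a mouse build, although the rows carry rat gene identifiers; the aligner and the quantifier are named in none of the sources used here. Which reference was used is therefore unsettled, and values are compared between libraries for 1 gene at a time. No counts were used and the depth is unknown, so precision rests on the scatter of 3 libraries.

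Genes averaging at least 1 FPKM (11372) were fitted as log2(FPKM + 1), each group having 1 coefficient, by limma 3.58.1 (R 4.3.3) under trend and robust moderation. Two-sided p-values were adjusted by Benjamini-Hochberg over all 11372, with a threshold of 0.05. Log2 fold changes are given ± SE on that scale, where low genes appear to change less, and levels ± SD (n = 3). Shares carry 95% Fieller intervals. The fit was tested on simulated data, with changes put into the IL-1β group only and larger than many reported here. Smaller changes were therefore not covered by it. The members and lists were chosen with earlier results of these data known. Library by library stand Atf4, Ddit3, Trib3, Chac1, Asns, Slc7a11 and up to 4 members per role with the largest changes, with Mthfd1l, Slc7a3, Ppp1r15a and Ass1 added after their values were seen. From each further list up to 4 genes with the smallest p are named. Alternatives were a pseudocount of 0.1, no minimum or one of 5 FPKM, 2 other scalings, plain moderation, fits of 2 groups, a replicate block and leaving out each library. Promoter sequences are from RefSeq, assembly GRCr8, matched by gene ID.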

Additional observations from a re-analysis of the deposited data

How the results depend on the processing

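The 37 genes lower with IL-1β were 36 to 38 under every alternative run, and 37 without any 1 library. The 2 higher genes became 1 with a minimum of 5 FPKM, which leaves Slc7a11 out of the test. They also became 1 after quantile normalization, without trend and robust settings and in the fit of the 2 groups alone. They were 1 to 2 without 1 library. In all these other cases it was Slc38a2 that did not pass. Counts in the other comparisons stayed within 1.5 times. Co-culture against IL-1β alone had 27 to 32 higher, with 31 to 32 without 1 library. Co-culture against control had 32 to 37 lower, with 32 to 35 without 1 library. With the replicate block the counts were 37 lower and 2 higher, 31 higher and 3 lower, and 35 lower and 1 higher. The labels do not say if the replicate numbers pair the libraries. Deviations from group means correlated at -0.046 to 0.189 between libraries of the same number and -0.221 to 0.133 between those of different numbers. Such weak correlations cannot decide if the libraries were paired.

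The median share left in co-culture moved from 45.9% to 55% after median-of-ratios scaling, 55.6% after quantile normalization, 51.9% when computed from mean FPKM and 43.9% over genes changed by at least 0.5. Without 1 library it was 44.5% to 48.6%. Signs turned for 6 values that had small changes: Slc38a2 with IL-1β (-0.0112 after quantile normalization), Atf4 in co-culture against IL-1β alone (0.0111 after quantile normalization), Tars in the same comparison (-0.0232 after median-of-ratios scaling) and Ddit4 in co-culture against control (-0.0021 after median-of-ratios scaling, -0.0243 after quantile normalization, and between -0.0144 without control replicate 1 and 0.0496 without control replicate 2). The cause was not tested. The unknown depth limits what can be said of genes under the minimum, Cbs and Slc7a3.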

Other observations

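Amino acid and folate genes outside the list were also measured. Of 19 tested genes of serine, glycine, folate, glutamine and arginine handling, 6 were lower and 3 higher with IL-1β, beside 31.2% and 20.5% of all genes. In co-culture 9 were higher than control and 1 was lower, beside 12.4% and 7.91% of all genes. The cytosolic folate enzyme gene Mthfd1 averaged 38.6 ± 0.464 FPKM in co-culture, 27.9 ± 0.525 with IL-1β alone and 33.6 ± 0.205 in control (0.19 ± 0.03, adjusted p = 0.001 in co-culture against control, limma), thymidylate synthase Tyms 22.8 ± 0.346 FPKM in co-culture, 15.2 ± 0.911 with IL-1β alone and 20.1 ± 0.587 in control and glutamine synthetase Glul 179 ± 2.23 FPKM in co-culture, 137 ± 2.53 with IL-1β alone and 157 ± 2.58 in control (0.18 ± 0.03, adjusted p = 0.00064 in co-culture against control). Ass1, which rebuilds arginine from citrulline and is known to be induced with nitric oxide synthesis, was at 1.11, 1.18 and 1.18 FPKM in co-culture, 3.57, 2.59 and 2.59 FPKM with IL-1β alone and 0.49, 0.52 and 0.62 FPKM in control, with no overlap between groups and a rise of 1.33 ± 0.10, adjusted p = 3.5e-07 with IL-1β.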
